A study of Mus musculus with 15 samples.

Results

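Hesx1, Lhx3, Lhx4 and Pitx1 are 4 homeobox genes of the early pituitary. They were taken by gene symbol, and every probe set that the array annotation gives to 1 of these genes was used. That gave 7 of the 45037 probe sets tested, and 4 of the 18193 genes with a probe set of their own: 1 probe set for Hesx1 and 2 each for Lhx3, Lhx4 and Pitx1. The pituitary forms from Rathke's pouch, a fold of oral ectoderm. Pitx1, a paired-like activator, is active in that ectoderm from the start, and Lhx3 and Lhx4, which carry LIM domains beside the homeodomain, are needed for the pouch to grow and for its cells to become hormone cells. Hesx1 is a paired-like repressor of the early pouch that recruits TLE corepressors, and it is normally shut down as the gland develops. Pit1 (Pou1f1), the POU factor lost in Snell dwarf mice, acts later, in the cells that make Gh, Prl and Tshb.

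Each array held RNA pooled from pituitaries of newborn mice (postnatal day 1), and 5 pools were measured in each of 3 groups, 15 arrays in all. Wild-type Pit1+/+ and mutant Pit1dw/dw pools were on the DW/J background, whereas Prop1df/df pools were on DF/B. Genotype and strain therefore cannot be told apart in either comparison with Prop1df/df, and no wild-type group on DF/B was used here. All mice received a high fat chow. Values are log2 signals, so a difference of 1 is a 2-fold change. Nothing in the labels ties a pool to given litters or animals, so p-values measure the spread between these pools. In whole-gland RNA, fewer cells of a type and less RNA per cell cannot be told apart.

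Some pools stood apart from their groups. Pit1+/+ pool 1, so named in its title and listed as DW/J, carries Prop1df/df in the genotype field of the labels. On 1021 probe sets that separated Prop1df/df from the other 4 Pit1+/+ pools by a log2 difference of 1 or more, its median position was 0.02 (quartiles -0.12 to 0.18), where 0 is the mean of those 4 pools and 1 that of Prop1df/df. Pit1+/+ pool 5 also differed. Without it 6532 probe sets passed the limma threshold (adjusted p below 0.05) in Prop1df/df against Pit1+/+, beside 3350 with it. Its homeobox gene Six3 (7.42) and hormone gene Pomc (13.74) lay within the Prop1df/df ranges, 6.72 to 7.52 and 13.19 to 13.75. Its Gh (14.15), Tshb (11.77) and Hesx1 (2.93) lay outside those ranges. Among pools labelled Prop1df/df, growth hormone (Gh) read 13.58, 14.07 and 14.03 in pools 1 to 3 but 8.99 and 10.24 in pools 4 and 5. Gh was 14.15 to 14.28 in Pit1+/+ and 7.15 to 10.31 in Pit1dw/dw. Pools 1 to 3 thus lay just under the wild-type range, and pools 4 and 5 within the Pit1dw/dw range. In pools 1 to 3 the thyrotropin subunit Tshb was 9.83, 9.89 and 9.68, below the 11.67 to 12.29 of Pit1+/+ but above the 6.20 to 7.01 of Pit1dw/dw. In pools 4 and 5 Tshb was 6.28 and 7.17, so it split the same pools as Gh. Prolactin (Prl) was 3.09, 3.00 and 2.87 in pools 1 to 3 and 3.02 and 3.62 in pools 4 and 5, below the 3.78 to 4.83 of Pit1+/+. Whether every pool labelled Prop1df/df holds only that genotype was not tested, and each Prop1df/df mean stands for the libraries so labelled. Pou1f1 itself was not analysed here. Markers of sensory ganglion (5 of 8 measured) averaged 8.02 to 10.61 in Pit1+/+ pool 3, Pit1dw/dw pools 2, 3 and 5 and Prop1df/df pools 3 and 4, against 5.23 to 6.77 in the other pools. Pituitary markers were all above the median of all values (4.37). Markers of oral epithelium, the tissue next to the pouch's origin, were below it for 7 of 8 genes, and those of skeletal muscle for 6 of 6. The bone and cartilage list (6 of 7 measured) averaged 6.23 to 8.11 in Prop1df/df, 4.12 to 6.96 in Pit1+/+ and 5.00 to 7.24 in Pit1dw/dw. The 7 neural lobe and hypothalamus markers averaged 4.29 to 5.19 over all pools.

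The sequence before the Hesx1 start is shown because Hesx1 was the member whose level separated the groups, and because paired-like homeodomain factors can bind palindromic pairs of sites. In RefSeq (GRCm38.p6) the 250 bases before the start lie at chr14:27000112-27000361 on the plus strand, with 34% G and C. Capitals mark a match to the palindrome P3, the half-sites TAAT and ATTA with any 3 bases between them, 149 to 139 bases before the start.

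Hesx1: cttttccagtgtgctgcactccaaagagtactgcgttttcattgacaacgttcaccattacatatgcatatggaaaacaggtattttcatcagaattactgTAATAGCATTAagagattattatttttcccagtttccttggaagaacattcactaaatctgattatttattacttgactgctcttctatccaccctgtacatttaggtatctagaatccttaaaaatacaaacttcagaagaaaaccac

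Both strands were searched for this pattern, which reads as itself on either strand. It was present in 152 of 32851 promoters of the same length (0.463%). Its half-sites hold only A and T, and the Hesx1 window had 34% G and C against a median of 52.4% over all promoters. The share among promoters equally low in G and C was not counted. The other motifs searched, on both strands, were TAATTA (4.84% of promoters), TAATCC, the Pitx-type site (6.25%), and TAATTG (7.17%). TAATTA can overlap P3, since its letters may run from the first half-site into the spacer. The Hesx1 window held none of these 3 shorter motifs. Neither of the 2 Lhx3 starts nor the Lhx4 start had a match to any of the 4 motifs. Their windows held 70.8%, 62% and 66% G and C, against a median of 52.4% over all promoters. A match is a string of letters and no evidence of binding.

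Hesx1 was higher in Prop1df/df than in both other groups, by an estimated 4.94-fold or more over Pit1+/+. No difference was detectable between Pit1dw/dw and Pit1+/+. Its signal (1420604_at) was 5.15, 5.67, 4.40, 5.90 and 5.93 in Prop1df/df pools 1 to 5. It was 2.81, 2.94, 2.79, 3.05 and 2.93 in the Pit1+/+ pools and 2.88, 2.68, 3.00, 2.56 and 3.15 in the Pit1dw/dw pools. Every Prop1df/df pool lay above every other pool, while the Pit1+/+ and Pit1dw/dw pools overlapped. The group means were 5.41 ± 0.65 (SD, n = 5) in Prop1df/df, 2.90 ± 0.11 (SD, n = 5) in Pit1+/+ and 2.86 ± 0.24 (SD, n = 5) in Pit1dw/dw.

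The log2 change in Prop1df/df was 2.51 against Pit1+/+ (SE 0.23, 95% interval 2.01 to 3.01, limma adjusted p = 4.79e-06). It was 2.56 against Pit1dw/dw (SE 0.23, 95% interval 2.06 to 3.05, limma adjusted p = 4.34e-06). These comparisons share the Prop1df/df pools. The Hesx1 signal was below the lower quartile of its array on 9 of the 10 DW/J arrays, so its level there is only a bound. Against each array's lower quartile the estimated rise was 4.94-fold or more over Pit1+/+ and 4.89-fold or more over Pit1dw/dw. These bounds come from group means and leave out the spread between pools. Pit1dw/dw minus Pit1+/+ was -0.05 (95% interval -0.54 to 0.45, limma adjusted p = 0.995).

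Within Prop1df/df, Hesx1 was lowest in pool 3, which also had the highest ganglion marker average of the group, and it averaged 5.07 in pools 1 to 3 against 5.92 in pools 4 and 5. Without the 3 pools with high Gh the measured change was 3.02 against Pit1+/+ and 3.06 against Pit1dw/dw, again from levels that are bounds in the DW/J groups. The part of ganglion or cartilage RNA in these values was not tested. The 21 alternatives kept both Hesx1 calls, with measured changes of 2.38 to 3.02 against Pit1+/+ and 2.43 to 3.06 against Pit1dw/dw.

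**Figure D1:**
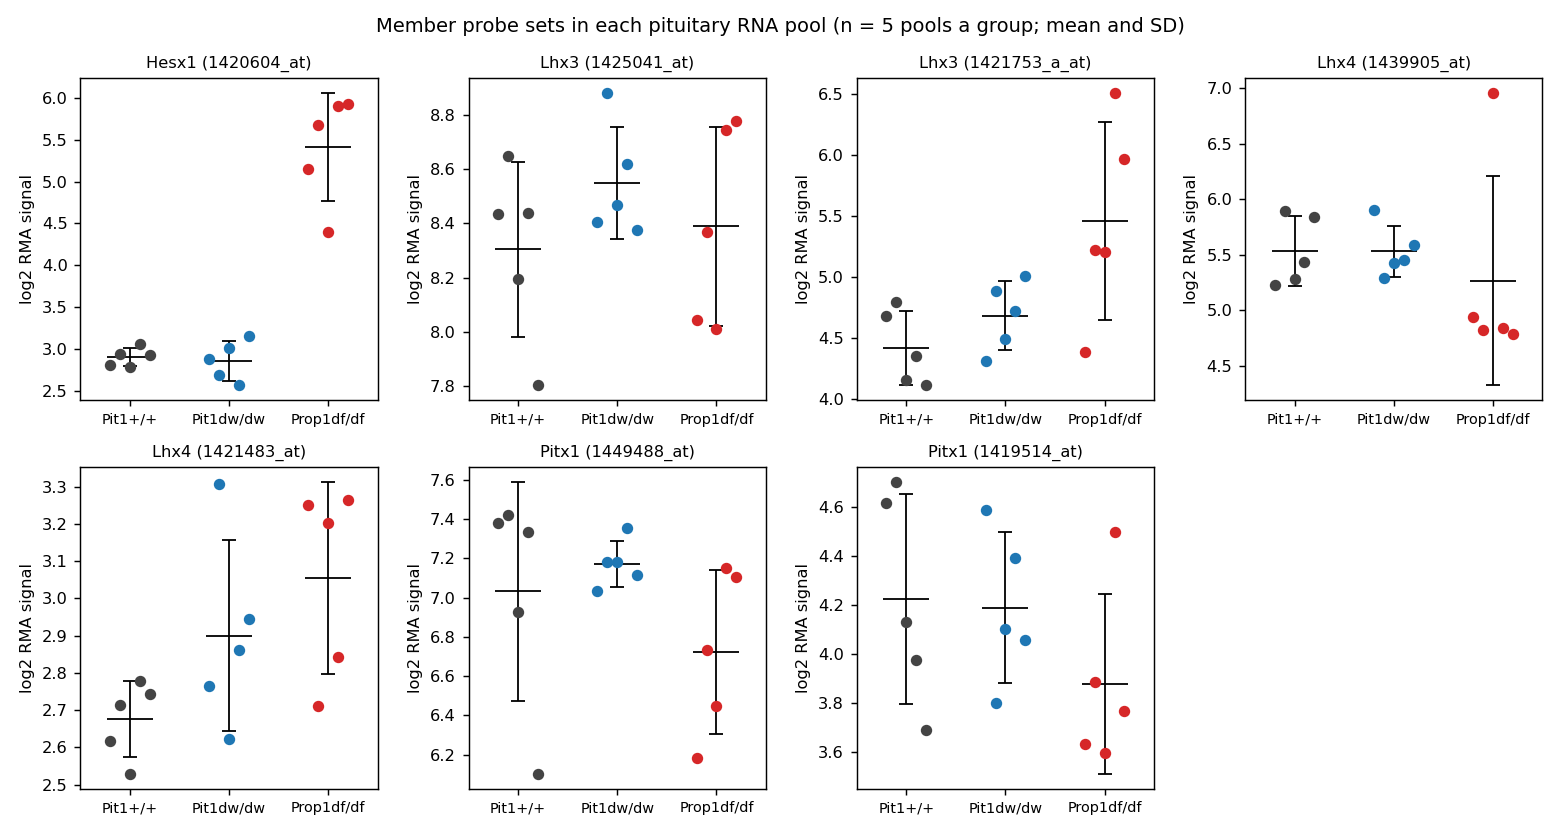
Log2 RMA signal of the 7 member probe sets (y axes, not starting at 0) in each pool of Pit1+/+, Pit1dw/dw and Prop1df/df (x axes); points are pools 1 to 5 from left to right, horizontal bars the mean and whiskers the SD. Hesx1 is the only panel in which all 5 Prop1df/df pools lie above every other pool, and Lhx4 (1439905_at) has 1 Prop1df/df pool at 6.96 above 4 others at or under 4.94.

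Over all members, 0 of 7 probe sets passed the limma threshold (adjusted p below 0.05) in Pit1dw/dw against Pit1+/+, with 0 of 7 also at an unadjusted p under 0.05. In that comparison 0.371% of all probe sets passed. In Prop1df/df against Pit1+/+, 2 of 7 passed, Hesx1 and 1 Lhx3 probe set, both higher, beside 7.44% of all probe sets (2.83% higher). In Prop1df/df against Pit1dw/dw only Hesx1 passed, higher and 1 of 7, beside 5% of all (2.08% higher). The Hesx1 probe set alone had groups without overlap in both Prop1df/df comparisons, where 6.31% and 7.19% of all probe sets did.

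**Figure D2:**
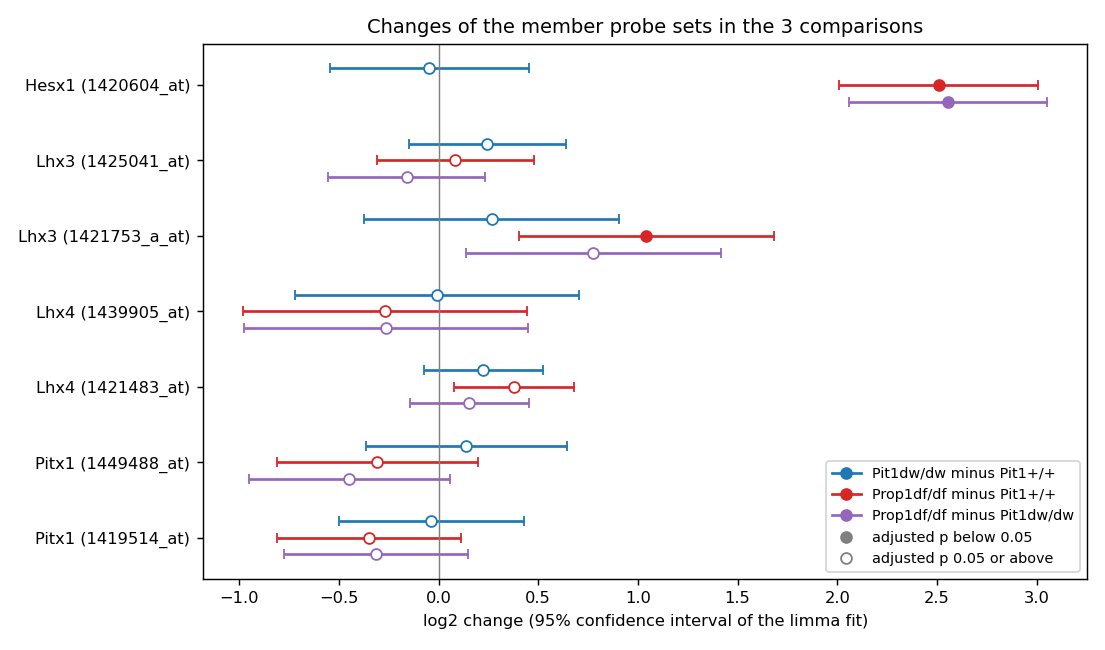
Log2 change (x axis) of each member probe set (y axis) with its 95% confidence interval from limma, in the 3 comparisons; filled points have an adjusted p below 0.05. Only Hesx1 (2.51 and 2.56) and Lhx3 1421753_a_at against Pit1+/+ (1.04) are filled.

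Lhx3 gave different readings at its 2 probe sets. At the brighter one (1425041_at) no comparison passed, and the groups overlapped. Its signal was 8.04, 8.37, 8.01, 8.74 and 8.78 in Prop1df/df, 8.44, 8.65, 8.19, 8.44 and 7.80 in Pit1+/+, and 8.40, 8.88, 8.47, 8.62 and 8.38 in Pit1dw/dw. The lowest pool was Pit1+/+ pool 5 and the highest Pit1dw/dw pool 2. Group means were 8.39 ± 0.37, 8.30 ± 0.32 and 8.55 ± 0.21 (SD, n = 5 each) in that order. Prop1df/df minus Pit1+/+ was 0.09 (95% interval -0.31 to 0.48), minus Pit1dw/dw -0.16 (-0.55 to 0.23), and Pit1dw/dw minus Pit1+/+ 0.25 (-0.15 to 0.64). The limma adjusted p-values were 0.840, 0.691 and 0.898.

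The dimmer probe set (1421753_a_at) carries the suffix used for probes shared by several transcripts of 1 gene. It read 4.38, 5.22, 5.21, 6.51 and 5.97 in Prop1df/df, 4.68, 4.79, 4.15, 4.35 and 4.11 in Pit1+/+, and 4.31, 4.89, 4.49, 4.72 and 5.01 in Pit1dw/dw. All Prop1df/df pools except pool 1 lay above every DW/J pool. Prop1df/df was higher than Pit1+/+ by 1.04 (SE 0.30, limma adjusted p = 0.0462). The change against Pit1dw/dw was 0.78 (SE 0.30, limma adjusted p = 0.172) and that of Pit1dw/dw against Pit1+/+ was 0.27 (limma adjusted p = 0.957).

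That call was close to the threshold and ended under 12 of 19 alternatives. Without Pit1+/+ pools 1, 2, 3, 4 or 5 in turn the limma adjusted p was 0.0635, 0.0559, 0.0983, 0.0929 and 0.0564, and without Prop1df/df pools 2, 4 or 5 it was 0.0676, 0.0893 and 0.113. Without Prop1df/df pool 1 the change against Pit1dw/dw passed (1.04, limma adjusted p = 0.0309). Without pools high in Prph, a ganglion gene, the change was 0.71 (limma adjusted p = 0.238). High means above 7, which left out Pit1+/+ pool 3, Pit1dw/dw pools 2 and 3 and Prop1df/df pools 3 and 4. Pit1dw/dw pool 5 was kept (Prph 3.51), though its ganglion markers averaged 8.02. A call lost under this filter therefore cannot tell ganglion RNA from the smaller number of pools. Without Prop1df/df pools high in Gh it was 1.82 (limma adjusted p = 0.000911), and 1.56 against Pit1dw/dw (limma adjusted p = 0.00358).

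The gap between the 2 Lhx3 probe sets, dimmer minus brighter, was -2.93 ± 0.52 (SD, n = 5) in Prop1df/df, -3.89 ± 0.17 in Pit1+/+ and -3.87 ± 0.29 in Pit1dw/dw. By an exact two-sided permutation test the gap in Prop1df/df differed from Pit1+/+ by 0.96 (p = 0.00794, the smallest that 5 against 5 pools can give). Against Pit1dw/dw the difference was 0.94 (exact permutation p = 0.0159). Adjusted over the 9 gaps tested for Lhx3, Lhx4 and Pitx1, both gave 0.0714, which missed the threshold, and the other 7 were 0.52 or higher.

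**Figure D3:**
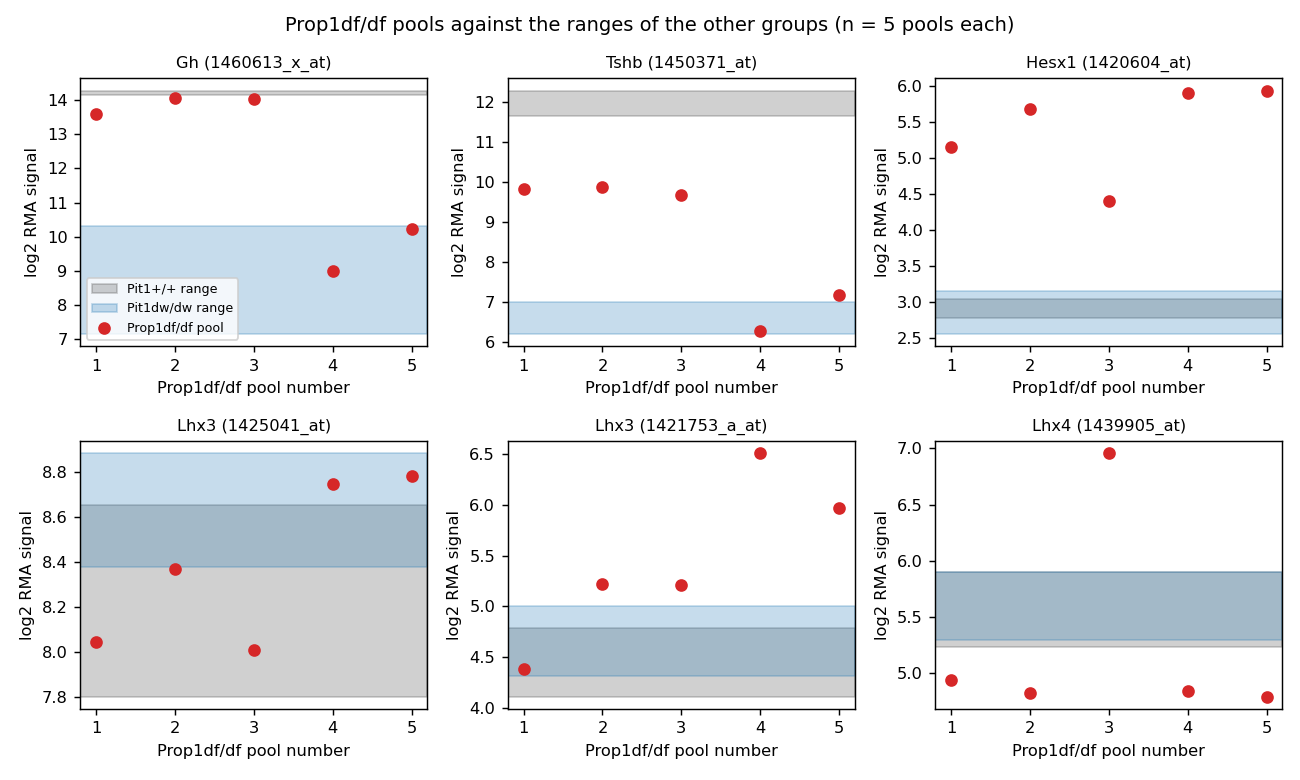
Log2 RMA signal (y axes) of Gh, Tshb, Hesx1, both Lhx3 probe sets and Lhx4 in each Prop1df/df pool (x axes; points), with shaded bands for the range of the 5 Pit1+/+ (grey) and 5 Pit1dw/dw (blue) pools. Gh of pools 1 to 3 is 13.58 to 14.07 and that of pools 4 and 5 is 8.99 and 10.24, and Hesx1 exceeds both bands in all 5 pools.

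Lhx4 (1439905_at) was set apart by 1 pool. Its signal was 4.94, 4.82, 6.96, 4.84 and 4.79 in Prop1df/df, 5.23, 5.90, 5.28, 5.44 and 5.84 in Pit1+/+, and 5.90, 5.29, 5.42, 5.45 and 5.58 in Pit1dw/dw. The other 4 Prop1df/df pools lay below all 10 DW/J pools, whereas pool 3 lay above all of them. With all pools, Prop1df/df minus Pit1+/+ was -0.27 (SE 0.34, limma adjusted p = 0.703), minus Pit1dw/dw -0.26 (limma adjusted p = 0.724), and Pit1dw/dw minus Pit1+/+ -0.01 (limma adjusted p = 0.999).

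Without pool 3, Prop1df/df averaged 4.85 ± 0.06 (SD, n = 4), and the change was -0.69 against Pit1+/+ (SE 0.16, limma adjusted p = 0.0131) and -0.68 against Pit1dw/dw (limma adjusted p = 0.0189). Each pool was left out in turn, and pool 3 is singled out after its value was seen. Leaving out the pools high in Prph, pool 3 among them, gave -0.75 against Pit1+/+ (limma adjusted p = 0.0410) and -0.80 against Pit1dw/dw (0.0619). Without the pools high in Gh, also including pool 3, it gave -0.72 (limma adjusted p = 0.0985) and, against Pit1dw/dw, -0.72 (limma adjusted p = 0.129). Pool 3 had a ganglion average of 10.21, the highest of its group. Pit1+/+ pool 3 had 10.61 and Pit1dw/dw pool 3 had 10.02, with Lhx4 at 5.28 and 5.42. The part of ganglion RNA in the Lhx4 values was not tested.

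The other Lhx4 probe set (1421483_at) was dim, from 2.53 to 3.31 over all pools, and its groups overlapped. All Pit1+/+ pools, at 2.53 to 2.78, lay under the lower quartiles of the arrays (3.05 to 3.25), so their level is only a bound. The measured Prop1df/df minus Pit1+/+ was 0.38 (SE 0.14, limma unadjusted p = 0.0164, limma adjusted p = 0.126). Its sign differs from that of the brighter probe set but rests on those bounds. The other changes were 0.15 against Pit1dw/dw and 0.22 for Pit1dw/dw against Pit1+/+ (limma adjusted p = 0.598 and 0.839).

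Pitx1 passed the threshold in no comparison, at either probe set. At 1449488_at it was 6.18, 6.74, 6.45, 7.15 and 7.11 in Prop1df/df, 7.38, 7.42, 6.93, 7.33 and 6.10 in Pit1+/+, and 7.03, 7.18, 7.18, 7.35 and 7.11 in Pit1dw/dw. The Pit1dw/dw pools were close together, whereas Pit1+/+ pool 5 and Prop1df/df pool 1 were low. Means were 6.73 ± 0.42, 7.03 ± 0.56 and 7.17 ± 0.12 (SD, n = 5 each) in the same order. Prop1df/df minus Pit1+/+ was -0.31 (95% interval -0.81 to 0.20) and minus Pit1dw/dw -0.45 (-0.95 to 0.06), with limma adjusted p = 0.500 and 0.330. With 1 pool left out, the change against Pit1+/+ ran from -0.54, without Pit1+/+ pool 5, to -0.17. The limma adjusted p then ran from 0.060 to 0.795, so the estimate depends on that pool. Pit1dw/dw minus Pit1+/+ was 0.14 (limma adjusted p = 0.982).

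At 1419514_at Pitx1 ran from 3.60 to 4.70, with changes of -0.35, -0.31 and -0.04 in the same order of comparisons (limma adjusted p = 0.394, 0.473 and 0.996). Within Prop1df/df the high-Gh pools 1 to 3 averaged 6.46 at 1449488_at, against 7.13 in pools 4 and 5. The brighter Lhx3 probe set averaged 8.14 and 8.76 in the same pools, and the dimmer one 4.94 and 6.24. Which feature of these pools goes with those levels was not tested.

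Lhx3 and Pitx1 varied together over pools. At their brighter probe sets Pearson's r was 0.82 over 15 pools (permutation p = 0.00062, adjusted 0.00186 over 3 pairs) and Spearman's rho was 0.72 (permutation p = 0.00358, adjusted 0.0107). Without Pit1+/+ pool 5 and Pit1dw/dw pool 2, the 2 farthest from the median of Lhx3, r was 0.77 (n = 13). The permutation p tests against no relation at all, and pools can share variation over many genes. Dbp, Cfap126, Krt8 and Cdh26 each had a higher r with Lhx3, from 0.88 to 0.93. How many gene pairs reach such an r was not counted. Lhx4 was not related detectably to Lhx3 (r = -0.43, rho = -0.30, permutation p = 0.124 and 0.281) or to Pitx1 (r = -0.20, rho = 0.04, permutation p = 0.46 and 0.902). Without Prop1df/df pools 3 and 5 the Lhx4 and Pitx1 r was 0.13. Each group has 5 pools, too few for a value within it. Hesx1 fell into separate groups and was left out of these pairs.

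**Figure D4:**
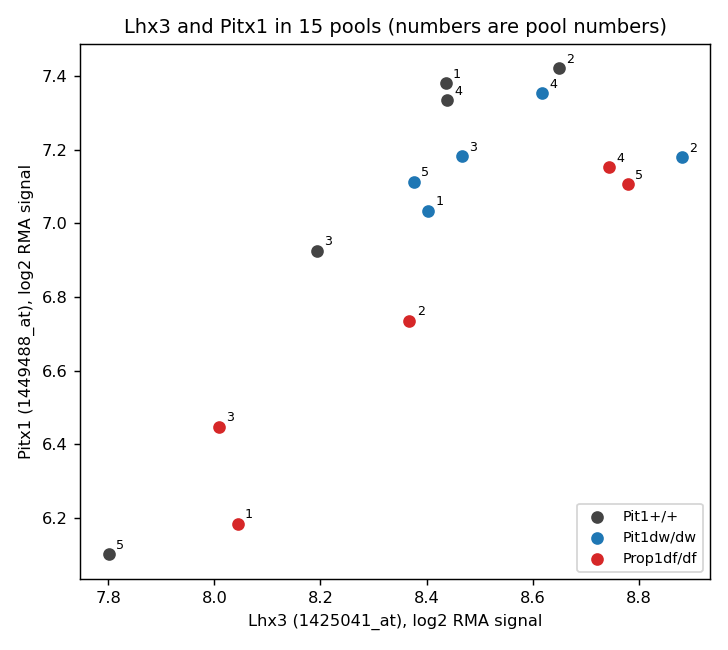
Pitx1 (y axis) against Lhx3 (x axis), both as log2 RMA signal at the brighter probe set, for 15 pools coloured by group and marked with the pool number. Pit1+/+ pool 5 has both values lowest (7.80 and 6.10), and Pearson's r over all pools is 0.82.

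Genes with patterns like those of the members were ranked by Pearson's r over the 15 pools, among 11783 other genes with a mean above the median of all values. For Hesx1 the first 4 were Adam28 and Adamdec1, which encode ADAM-family proteins, Clic5, a chloride intracellular channel protein, and Insl6, a relaxin-family peptide. Their means in Prop1df/df, Pit1+/+ and Pit1dw/dw were 6.80, 3.75 and 3.65 for Adam28, 7.15, 2.99 and 3.26 for Adamdec1, 7.25, 5.44 and 5.84 for Clic5, and 6.37, 4.43 and 4.64 for Insl6. All 4 had their highest mean in Prop1df/df, as Hesx1 did, and the ranking follows that group difference. Adam28 and Adamdec1 were above the median of all values only in Prop1df/df, so they entered the ranking through that group. Once group means were removed, r with Hesx1 was 0.88 for Adam28, 0.63 for Adamdec1, 0.92 for Clic5 and 0.88 for Insl6, though most DW/J values of Hesx1 are bounds and have no order. The genes named for each member were picked as the highest of many, and their values carry no test.

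The genes most like Lhx3 were Dbp (r = 0.93), a PAR-type bZIP factor, Cfap126 (0.92), a cilium gene, Krt8 (0.90), a keratin of simple epithelia, and Cdh26 (0.88), a cadherin. For Pitx1 they were Misp (0.96), Cldn9 (0.95), a claudin of tight junctions, Sphk2 (0.93), a sphingosine kinase, and Uck1 (0.92). Removing group means left r at 0.90 to 0.95 for these 8 genes. For Lhx4 they were Agfg2 (0.85), Tpp2 (0.81), Thoc1 (0.80) and Pde6c (0.76). Without Prop1df/df pool 3 the Pde6c value was 0.26, and those of Agfg2, Tpp2 and Thoc1 were 0.79, 0.63 and 0.82.

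Other factors that pattern the early gland or the overlying brain changed in both directions in Prop1df/df. Of 12 measured (of 16 listed), 1 was higher and 2 lower than Pit1+/+, with a median change of -0.13, and 1 higher and 2 lower than Pit1dw/dw, with a median of -0.01. Over all genes 9.48% passed against Pit1+/+ (2.9% higher and 6.58% lower, median -0.04) and 5.73% against Pit1dw/dw (2.02% higher and 3.71% lower, median -0.02). Otx2, a homeobox factor of the forebrain that also acts on Hesx1, was 7.88 ± 0.30 in Prop1df/df, 6.49 ± 0.38 in Pit1+/+ and 6.39 ± 0.64 in Pit1dw/dw (SD, n = 5 each). It rose by 1.39 (limma adjusted p = 0.00378) and 1.49 (limma adjusted p = 0.00282).

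Six3, a homeobox gene of the anterior neural plate, fell by 0.87 and 0.90 (limma adjusted p = 0.0167 and 0.0181). It was 7.21 ± 0.39 in Prop1df/df, 8.08 ± 0.38 in Pit1+/+ and 8.10 ± 0.28 in Pit1dw/dw (SD, n = 5 each). Its call ended without Prop1df/df pool 1 (-0.75 and -0.77, limma adjusted p = 0.0502 and 0.0529) and, against Pit1dw/dw, without Pit1dw/dw pool 2 (0.053). The mean of its probe sets gave -0.48 in both (limma adjusted p = 0.053 and 0.0695). Six6, its relative in eye and pituitary, fell by 0.76 (limma adjusted p = 0.0344) and 0.75 (limma adjusted p = 0.0488).

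The Six6 call against Pit1+/+ ended without Pit1+/+ pools 1, 2 or 4 (limma adjusted p = 0.0627, 0.0878 and 0.0887) or Prop1df/df pools 1 or 3 (0.0978 and 0.064). Against Pit1dw/dw it was kept without Prop1df/df pool 2 but ended without each of the other 9 pools, with limma adjusted p from 0.0568 to 0.132. Without the high-Gh pools 0 of the 12 genes passed in either comparison by limma, and 6 and 4 had an unadjusted p under 0.05. Otx2 was then 1.44 and 1.54 (limma adjusted p = 0.0557 and 0.0515), no smaller than with all pools, whereas Six3 was -0.58 and -0.60 (0.301 and 0.314). Without the pools high in Prph 0 of 12 passed as well, with 7 and 4 at an unadjusted p under 0.05, and Otx2 was 1.25 and 1.20 (limma adjusted p = 0.0692 and 0.128). In Pit1dw/dw against Pit1+/+ limma called 0 of 12, with 1 at an unadjusted p under 0.05 and a median of -0.05, beside 0.594% of all genes (0.104% higher and 0.489% lower, median -0.02).

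Among 10 cofactors that bind LIM domains or their bridge proteins, 1 rose and 1 fell in Prop1df/df against Pit1+/+ (median -0.09), beside 2.9% of all genes higher and 6.58% lower. Lmo4, a LIM-only protein that competes for the bridge protein Ldb1, rose by 0.73 (limma adjusted p = 0.00385), from 7.89 ± 0.23 to 8.63 ± 0.29 (SD, n = 5 each). In Pit1dw/dw Lmo4 was 8.48 ± 0.05 (SD, n = 5), a change of 0.58 against Pit1+/+ (unadjusted p = 0.000826, limma adjusted p = 0.122, and 0.0454 with array weights). Prop1df/df minus Pit1dw/dw was 0.15 for Lmo4 (limma adjusted p = 0.606). Ssbp4, a partner of Ldb1, fell by 0.52 (limma adjusted p = 0.0330), from 5.74 ± 0.21 to 5.22 ± 0.30. Without the high-Gh pools these were 0.61 (limma adjusted p = 0.0593) and -0.46 (0.177), and the Ssbp4 call also ended without Pit1+/+ pools 1, 2, 3 or 4 (0.0812, 0.0737, 0.0665 and 0.0861) or Prop1df/df pools 1, 2 or 5 (0.0847, 0.0715 and 0.074). Against Pit1dw/dw limma called 0 of 10, beside 5.73% of all genes (2 at an unadjusted p under 0.05, median -0.12). Pit1dw/dw against Pit1+/+ gave 0 of 10, beside 0.594% of all genes (1 unadjusted, median 0.05).

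The genes listed as Hesx1 corepressors, mostly of the TLE family, did not pass in any comparison. Whether each of them acts as a corepressor of Hesx1 was not tested. Of 7 measured (of 8 listed) limma called 0, with 2 at an unadjusted p under 0.05 in Prop1df/df against Pit1+/+, 0 against Pit1dw/dw and 1 in Pit1dw/dw against Pit1+/+. Over all genes 9.48%, 5.73% and 0.594% passed in these comparisons, so 0 of 7 was close to the share of all genes. The list's median changes were -0.09, -0.12 and 0.06. Tle1, the main corepressor of Hesx1 in the pouch, changed by 0.07, -0.24 and 0.30 (limma adjusted p = 0.843, 0.422 and 0.744).

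Of the 4 measured partner factors of Pitx1 (of 5 listed), 1 passed in Pit1dw/dw against Pit1+/+, beside 0.594% of all genes. In Prop1df/df 2 passed against Pit1dw/dw, beside 5.73% of all genes, and 0 against Pit1+/+, beside 9.48%. That 0 of 4 was close to the share of all genes. Nr5a1, the gonadotrope nuclear receptor SF-1, was 6.75 ± 0.31 in Pit1dw/dw, 5.37 ± 0.42 in Pit1+/+ and 5.67 ± 0.35 in Prop1df/df (SD, n = 5 each). It rose by 1.38 in Pit1dw/dw against Pit1+/+ (limma adjusted p = 0.00649) and was lower by a log2 change of -1.08 in Prop1df/df against Pit1dw/dw (limma adjusted p = 0.00592). Tbx19, the T-box factor that acts with Pitx1 on Pomc, changed by -0.74 in the latter comparison (limma adjusted p = 0.0134). Against Pit1+/+, Prop1df/df gave 0 of 4 by limma, with 0 of 4 at an unadjusted p under 0.05. Without the high-Gh pools Nr5a1 and Tbx19 gave -0.74 and -0.55 against Pit1dw/dw (limma adjusted p = 0.244 and 0.276). Without the pools high in Prph the Nr5a1 rise was 1.46 (limma adjusted p = 0.112) and Tbx19 was -0.66 (0.101). The medians of the 4 genes were 0.61 in Pit1dw/dw against Pit1+/+, 0.12 in Prop1df/df against Pit1+/+ and -0.44 in Prop1df/df against Pit1dw/dw.

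Hormone and receptor genes bound by Pitx1 or Lhx3 were often lower in Prop1df/df. Against Pit1+/+ 6 of 8 fell (median -1.78), beside 6.58% of all genes, and against Pit1dw/dw 4 of 8 fell and 1 rose (median -0.78), beside 3.71% and 2.02% of all genes. Cga, the common glycoprotein hormone subunit, was 11.28 ± 0.46 in Prop1df/df and 12.80 ± 0.18 in Pit1+/+ (SD, n = 5 each), a change of -1.53 (limma adjusted p = 0.000426), and -0.98 against Pit1dw/dw (limma adjusted p = 0.0162). Lhb and Fshb, the gonadotropin subunits, changed by -3.31 and -2.72 against Pit1+/+ (limma adjusted p = 0.0137 and 0.0123), Tshb by -3.34 (0.00153) and Pomc by -0.39 (0.0321). Tshb was 8.57 ± 1.71 (SD, n = 5) in Prop1df/df, from 6.28 to 9.89. Prl was under the array's lower quartile in 4 of 5 Prop1df/df pools, so its fall is a bound. The estimate from group means was 2.07-fold or more (limma adjusted p = 0.000779). Against Pit1dw/dw, Lhb, Pomc and Gnrhr, the GnRH receptor, fell by 3.24, 0.59 and 1.16 (limma adjusted p = 0.0204, 0.00306 and 0.00654), while Gh rose by 3.36 (0.0358). Gnrhr was not below Pit1+/+, with a change of 0.33 (limma adjusted p = 0.450). Its means were 7.12 in Prop1df/df, 6.78 in Pit1+/+ and 8.27 in Pit1dw/dw.

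Without the high-Gh pools, 3 of the 8 passed as lower against Pit1+/+ (Cga, Gh and Tshb, median -2.48) and only Cga against Pit1dw/dw (median -0.72). These pools were left out by their own Gh, so the Gh values here follow from that choice and are no test. Lhb and Fshb against Pit1+/+ were then -3.51 and -3.04 (limma adjusted p = 0.142 and 0.103), no smaller in size than with all pools, in a fit with 2 Prop1df/df pools. Gh then changed by 0.79 against Pit1dw/dw (limma adjusted p = 0.678), Lhb by -3.44 (0.182) and Gnrhr by -1.03 (0.0685). The Gh call against Pit1dw/dw also ended without Pit1dw/dw pools 2, 3 or 4 (0.0674, 0.0948 and 0.104) or Prop1df/df pools 1, 2 or 3 (0.0981, 0.102 and 0.07), and the Lhb call without Pit1dw/dw pools 1, 4 or 5 (0.0542, 0.0626 and 0.0585) or Prop1df/df pool 5 (0.0538). The Cga call against Pit1dw/dw ended without Pit1dw/dw pool 4 (0.052). Pomc against Pit1+/+ ended under 11 of 21 alternatives and was -0.05 after a second quantile normalization (limma adjusted p = 0.87). It ended without Pit1+/+ pools 1, 2, 3 or 4 (0.0777, 0.0741, 0.0666 and 0.0733) or Prop1df/df pools 1 or 2 (0.0756 and 0.0661).

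In Pit1dw/dw against Pit1+/+, 3 of these 8 genes fell and 1 rose (median -0.62). Gh and Tshb, which depend on Pit1, changed by -5.40 and -5.13 (limma adjusted p = 0.00933 and 0.000467), and Gnrhr rose by 1.49 (0.00662). Prl, also Pit1-dependent, was under the lower quartile in 4 of 5 Pit1dw/dw pools, and its estimated fall was 2.26-fold or more (limma adjusted p = 0.00477). Over all genes 0.104% rose and 0.489% fell. Without the pools high in Prph the Gh change was -5.16 (limma adjusted p = 0.0773) and the adjusted p of Prl 0.0503. The 4 early factors gave no call in that comparison.

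Of 11 other LIM homeobox and Pitx genes measured (of 12 listed), only Lhx8, a LIM homeobox factor of forebrain and oral mesenchyme, passed in the Prop1df/df comparisons, 1 of 11 beside 9.48% of all genes against Pit1+/+ and 5.73% against Pit1dw/dw. That 1 of 11 was close to the share of all genes. It was 4.75, 4.69, 4.89, 4.50 and 4.66 in Prop1df/df, 5.68, 5.75, 5.31, 6.04 and 5.82 in Pit1+/+ and 5.55, 5.29, 5.44, 5.57 and 5.57 in Pit1dw/dw. All Prop1df/df pools lay below all others. Groups did not overlap for 6.31% of all probe sets against Pit1+/+ and 7.19% against Pit1dw/dw. It fell by 1.02 against Pit1+/+ (limma adjusted p = 9.11e-05) and by 0.79 against Pit1dw/dw (limma adjusted p = 0.00113), and these calls held in the 21 alternatives. The list's medians were 0.01 and 0.00. In Pit1dw/dw against Pit1+/+ limma called 0 of 11, beside 0.594% of all genes (1 at an unadjusted p under 0.05, median -0.01). Isl1, which stands in this list and among the patterning factors, changed by -0.19 against Pit1+/+ (limma adjusted p = 0.626).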

How the data were processed

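Total RNA of pooled newborn pituitaries was hybridised to Affymetrix Mouse Genome 430 2.0 arrays. Per the submitters' processing notes the authors used RMA, and the deposited values are on the log2 scale, as checked on their range. No RMA version or setting is named there. RMA equalises array distributions, so changes are relative to the other genes of an array. Of 45101 probe sets, 64 controls were set aside. Samples were grouped by title. A model of 3 group means over all 15 arrays was fitted in limma 3.58.1 (R 4.3.3, lmFit and eBayes), two-sided, with Benjamini-Hochberg adjustment over 45037 probe sets and a threshold of 0.05. Lists were read at the probe set with the highest mean of each gene. The genes named are the members, list genes past the threshold in any comparison, and the 4 genes most correlated with each member. Tle1, Isl1 and marker genes were named after their values were seen. Members and lists were chosen with earlier results of these data known. Permutation tests used scipy 1.17.1. The number of arrays limits the precision. The fit was tested on simulated data. Some listed genes are not reported here. Alternatives covered scaling, filters, probe set choice, variance prior, array weights, a replicate block and left-out pools. Leaving out pools with Gh above 13 was chosen after seeing the data.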

Additional observations from a re-analysis of the deposited data

Results flagged for a closer look

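Among 21 groups searched (7 probe sets in 3 groups), 1 pool was far from the others of its group. Lhx4 (1439905_at) read 6.96 in Prop1df/df pool 3, with the nearest pool at 4.94, a gap of 0.93 of the group's whole range. Chance flags about 1 in 20 such groups.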

How the results depend on the processing

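With 5 pools a group, levels under an array's lower quartile give only bounds. Same-numbered pools deviated with correlations from -0.37 to 0.66 (7 of 15 over 0.1). Pools numbered 3 gave 0.54 in Pit1dw/dw against Pit1+/+, and 0.66 and 0.42 in Prop1df/df against Pit1+/+ and Pit1dw/dw. They also had the highest ganglion average of each group. Pools of unlike number were not compared, so these values do not decide whether the numbers pair the pools. The main fit did not pair them. With the replicate number as a block, 165, 3560 and 2501 probe sets passed in Pit1dw/dw against Pit1+/+, Prop1df/df against Pit1+/+ and Prop1df/df against Pit1dw/dw, beside 167, 3350 and 2254 without it. The block ended 1 call among the named genes, Pomc against Pit1+/+ (-0.39, limma adjusted p = 0.0614).

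The 3 counts became 721, 7770 and 4963 with array weights. Averaging the probe sets of each gene gave 1757 and 1066 in the Prop1df/df comparisons, and 1 probe set a gene gave 1920 and 1139; these test fewer features. Fitting only the 2 groups gave 2166 against Pit1+/+. Without pools high in Prph the count was 53 in Pit1dw/dw against Pit1+/+ and 1336 in Prop1df/df against Pit1dw/dw. Without Prop1df/df pools high in Gh it was 1399 and 968 in the Prop1df/df comparisons. Leaving out 1 pool gave 97 to 180, 2379 to 6532 (the highest without Pit1+/+ pool 5) and 1602 to 2749. Centring each array on its median turned the 939 higher and 1315 lower against Pit1dw/dw into 774 and 1678. The cause was not tested.

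Lhx3 1421753_a_at against Pit1+/+ was 0.99 with centred arrays, 1.04 in the fit of 2 groups, 1.02 after a second quantile normalization and 0.71 without the pools high in Prph (limma adjusted p = 0.0606, 0.118, 0.0616 and 0.238). Leaving out 1 pool gave 0.78 to 1.31, and 0.51 to 1.04 against Pit1dw/dw, where the value without pools high in Gh was 1.56. At 1425041_at, Prop1df/df minus Pit1dw/dw turned to 0.31 in the mean of probe sets and 0.21 without the pools high in Gh, and Prop1df/df minus Pit1+/+ ran from -0.041 to 0.18 with 1 pool left out. Lhx4 against Pit1+/+ was 0.055 in the mean of probe sets, -0.75 without the pools high in Prph, and -0.69 to -0.15 with 1 pool left out (-0.68 to -0.14 against Pit1dw/dw).

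Other changes that turned in sign follow; none of them passed with all pools. In Pit1dw/dw minus Pit1+/+, Lhx4 1439905_at gave 0.059 with array weights, 0.012 centred, 0.11 in the mean of probe sets, 0.015 after quantile normalization and 0.045 without the pools high in Prph. Without those pools Fshb gave 0.32, Lhb 1.14, Otx2 0.047, Pitx1 1419514_at 0.10 and Six3 -0.018. Array weights gave -0.048 for Pitx1 1449488_at and -0.16 for Six3. Six6 gave 0.0070 centred and 0.00094 after quantile normalization. With 1 pool left out, Hesx1 ran from -0.12 to 0.028, Lhb -0.42 to 0.38, Lhx4 -0.10 to 0.084, Otx2 -0.38 to 0.0022, Pitx1 1419514_at -0.17 to 0.085 and 1449488_at -0.093 to 0.24, Six3 -0.14 to 0.13 and Six6 -0.13 to 0.15. In Prop1df/df, leaving out the pools high in Gh gave 0.10 for Pitx1 1449488_at and 0.12 for Tbx19 against Pit1+/+, and -0.048 for Tshb against Pit1dw/dw, which was higher in Prop1df/df with all pools (limma adjusted p = 0.0877) and passed with array weights (limma adjusted p = 0.0255) and without Prop1df/df pools 4 (0.00447) or 5 (0.0442). Array weights gave 0.064 for Tbx19 (-0.17 to 0.045 with 1 pool left out), and Prl against Pit1dw/dw ran from -0.044 to 0.14.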
